A study of Mus musculus with 6 samples.

Results

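The genes of the proteasome, the particle that degrades proteins tagged with ubiquitin, were compared between 3 mammary tumors and 3 control mammary glands of mice. The members were all genes whose symbol in the array annotation begins with Psma, Psmb, Psmc, Psmd, Psme, Psmf or Psmg and ends in a number, except *Psmb8*, *Psmb9* and *Psmb10*, which are described separately. They numbered 44 of 18193 genes with 1 symbol, and 42 of them were among the 12518 genes bright enough to be tested. The tumors were of the acinar type and arose in *K14-cre*; *Apc* CKO/+ mice, in which a keratin 14 promoter drives the Cre recombinase in epithelial cells and so recombines 1 allele of the tumor suppressor *Apc*. The tumors carried that recombined, truncated allele (*Apc* Δ580) and, as the study describes them, a truncating change in the other allele. The control glands came from age-matched mice without *cre*, and no age or treatment is given for either group in the sources used here. Labels call the 3 samples of a group biological replicates. Whether each came from a separate animal is not given, so that the p-values measure the spread between these samples.

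The proteasome consists of a 20S core, a barrel of stacked rings made of alpha subunits (Psma) on the outside and beta subunits (Psmb) on the inside, and of caps that admit substrates. Proteolysis takes place inside the barrel, at the catalytic subunits Psmb5, Psmb6 and Psmb7. The usual cap is the 19S regulatory particle, whose base holds ATPases (Psmc) that unfold substrates and whose lid (most Psmd) removes ubiquitin. Dedicated chaperones assemble both parts: Psmg1 to Psmg4 help to build the core, and Psmd5, Psmd9 and Psmd10 help to build the 19S base. Transcription of many proteasome genes is raised by the factor Nrf1, encoded by *Nfe2l1*, when proteolysis falls short.

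Each array gave 1 signal per probe set, a group of short oligonucleotides against a transcript, on a linear scale set to the same trimmed mean of 500 on every array. The brightest probe set stood for a gene. The lowest control signal of a tested member was 322 and the highest tumor signal was 14591, and all 42 reached a signal of 100 on all 6 arrays. The other 2 members were dim. *Psma8*, an alpha subunit of the testis, had signals of 53.3, 61.3 and 48.7 in control glands against 54.7, 31.2 and 2.1 in tumors. *Psmb11*, the beta subunit of thymic epithelium, had signals of 11.7, 7.5 and 4.2 in control glands against 29.7, 8.5 and 36.3 in tumors. *Psmb5* and *Psmb11* are neighbors on chromosome 14, with 7314 bases between them in the GRCm38.p6 annotation, so that a member that was called and a member too dim to be tested lie side by side. The 44 members lie on 16 chromosomes, with 8 on chromosome 11.

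The tissues of the groups differed in cell content, as measured by marker lists. All 8 markers of epithelium tested were higher in tumors (median log2 fold change 2.52), all 7 of fat cells were lower (median log2 fold change -6.19), all 6 of fibroblasts were lower (median log2 fold change -3.81) and all 6 of dividing cells were higher (median log2 fold change 3.79). Signals of skeletal muscle genes differed within the groups: the creatine kinase gene *Ckm* read 499, 25224 and 6931 in the 3 control glands and 4117, 305 and 134 in the 3 tumors. Control 2 stood apart as the brightest in all 6 muscle genes tested. The 3' to 5' signal ratio of actin, a measure of RNA quality, was 1.46 to 2.30 in control glands against 1.44 to 2.32 in tumors, whereas that of *Gapdh* was 0.839 to 0.891 in control glands against 0.795 to 1.25 in tumors. In such bulk tissue, fewer cells of a type and less RNA per cell cannot be told apart. What part any of these differences has in the results was not tested, and the values without control 2 are given beside the counts.

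Most proteasome genes had higher signals in tumors, by amounts that were mostly below 2-fold. At an adjusted p under 0.05 (limma, Benjamini-Hochberg over 12518 genes, 2-sided), 13 of 42 members were higher in tumors, or 31.0%, against 16.3% of all genes tested. None of the 42 was lower, against 16.8% of all genes, and 33.1% of all genes were called in either direction. An unadjusted p under 0.05 was reached by 20 of 42 members on the higher side (23.4% of all genes) and by 0 on the lower side (21.5% of all genes). All 3 tumors lay above all 3 control glands for 25 members (27.1% of all genes) and below them for 0 members (23.1% of all genes), and the groups overlapped for 17. The median log2 fold change of the members was 0.56, that of all genes tested was 0.07, and 39 of 42 members were above 0 (53.2% of all genes). The called members rose between 1.66-fold and 3.00-fold. Only *Psma7* and *Psmb6* were called and at least 2-fold higher, or 4.76% of members against 10.6% of all genes.

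The number of calls and its excess over all genes depended on single arrays. It was 5 without control 1, 4 without control 3 and 5 without tumor 2, which are 11.9%, 9.52% and 11.9% of members against 11.6%, 10.1% and 11.3% of all genes, so that the share of members was then close to that of all genes. It was 9 without control 2, 12 without tumor 1 and 8 without tumor 3, which are 21.4%, 28.6% and 19.05% of members against 11.6%, 13.2% and 11.3% of all genes. *Psma7*, *Psmb4*, *Psmb6* and *Psmg3* were the 4 members called without each array in turn. None of the members was called lower when any array was left out. The median log2 fold change over members was 0.69 without control 2 and 0.47 without tumor 2, against 0.03 and 0.10 over all genes.

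**Figure D1:**
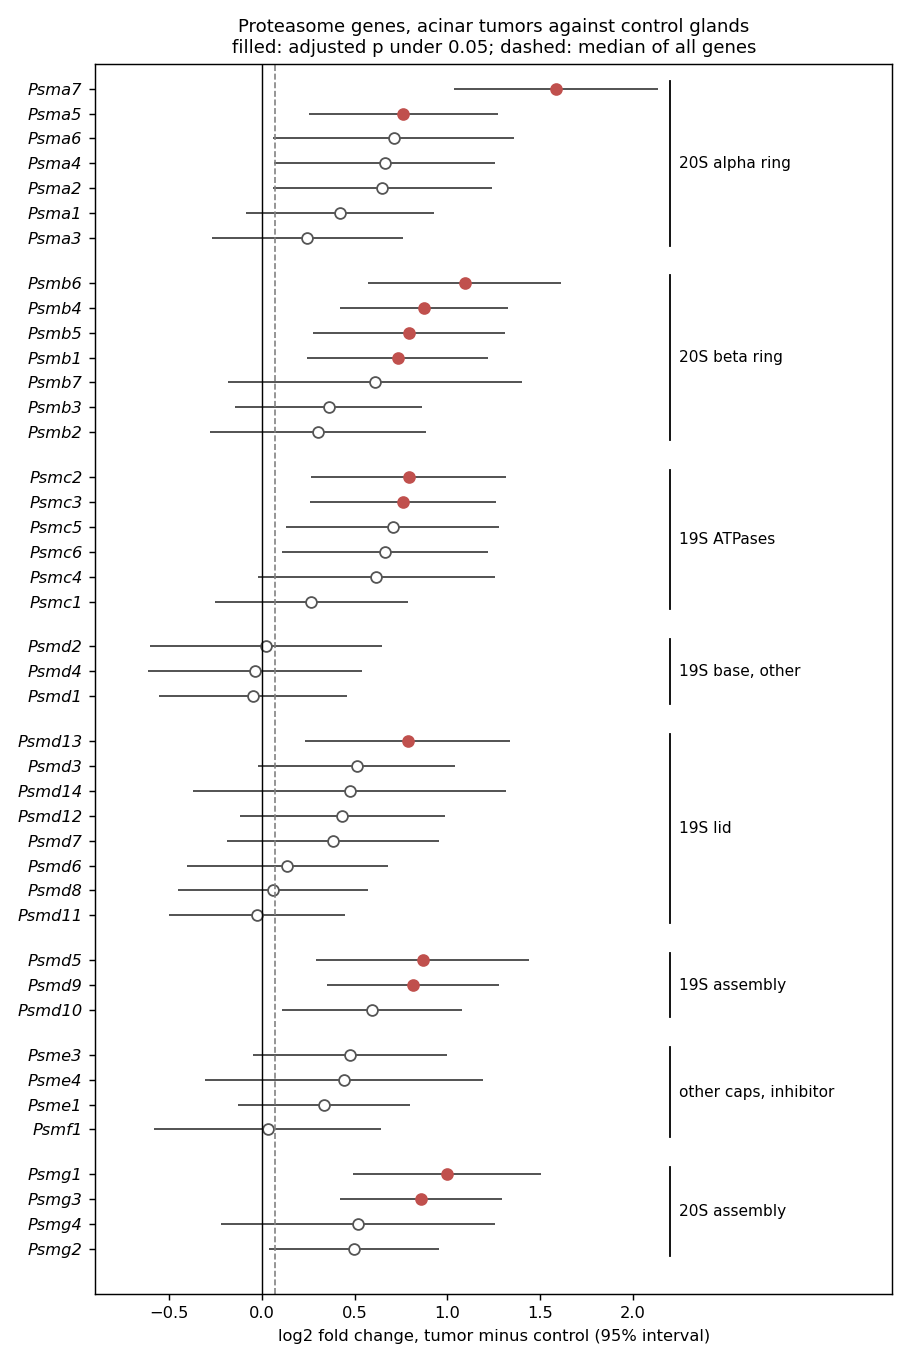
Log2 fold change of the 42 tested members, tumor minus control, with the 95% interval from limma over 3 arrays against 3, grouped by the role of the protein. Filled points are the 13 members with an adjusted p under 0.05, the solid line marks 0 and the dashed line the median of all genes, 0.07. Points of the core and of both sets of assembly chaperones sit to the right of the dashed line, and *Psmd1*, *Psmd2* and *Psmd4* of the 19S base lie about 0.

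The plot of fold changes by role shows where the members separated. In the 20S core 6 of 14 members were called (42.9%), at a median log2 fold change of 0.68. In the 19S regulatory particle 3 of 17 were called (17.6%), with a median of 0.43. Its parts differed: the median was 0.68 in the 6 ATPases, -0.04 in the 3 other base members and 0.41 in the 8 lid members. The median of the ATPases was thus close to that of the core. Among the chaperones, other caps and inhibitor 4 of 11 were called (36.4%), with a median of 0.52. The share of all genes called higher was 16.3%, and that of the 19S particle was close to it. The counts of each role below have the same share of all genes, 16.3%, to be read against. All tumors lay above all control glands for 10 of the 14 core members and for 7 of the 17 members of the 19S particle (27.1% of all genes). Without control 2 the median was 0.75 in the core and 0.58 in the 19S particle. Relative to the mean of the control glands, the mean log2 signal of the core was 0.53, 0.91 and 0.65 in tumors 1, 2 and 3, and -0.04, 0.16 and -0.12 in control glands 1, 2 and 3. The corresponding means of the 19S particle were 0.33, 0.51 and 0.31 in tumors, and -0.17, 0.25 and -0.08 in control glands. Both parts were therefore higher in each tumor than in any control gland. The core gained on the 19S particle as a whole in each tumor, by 0.21, 0.40 and 0.34. The same difference was 0.13, -0.09 and -0.04 in the control glands. The members were chosen with results known, and no p is given for these means.

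**Figure D2:**
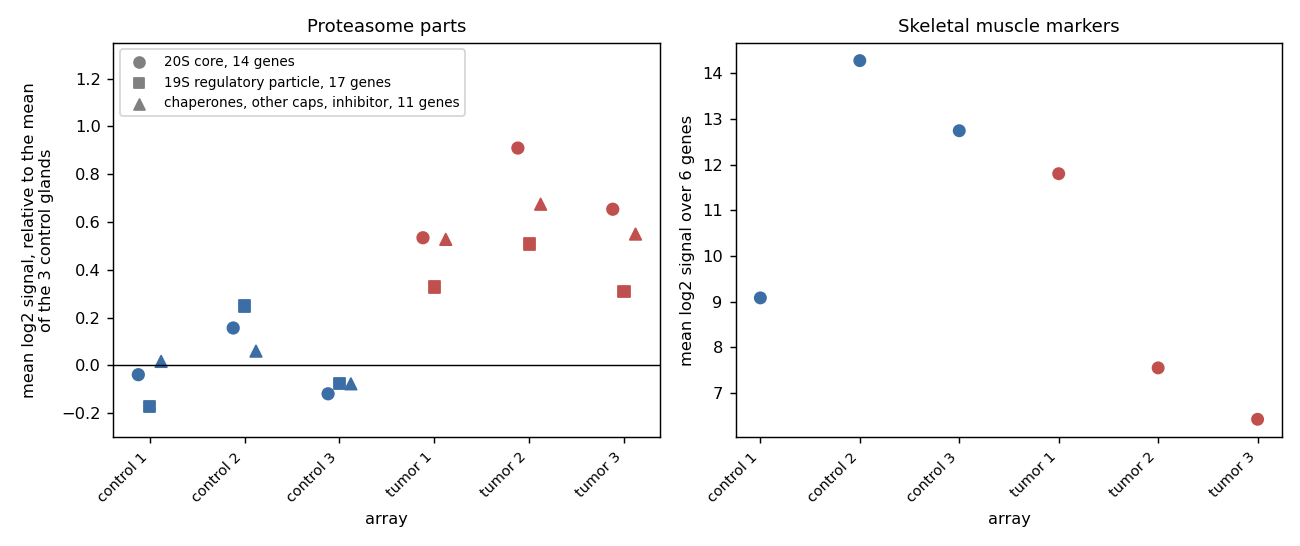
Left, mean log2 signal of the tested members of each proteasome part on each array, relative to the mean of the 3 control glands (blue, control glands; red, tumors). Right, mean log2 signal of 6 skeletal muscle genes on the same arrays. Every tumor lies above every control gland for the 3 parts, control 2 is the highest control gland for each part and also has the most muscle signal, and tumor 2 is the highest tumor.

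Within each group, most members were brightest on the same array. Control 2 was the brightest control gland for 29 of 42 members, and for 15 of the 17 members of the 19S particle. Tumor 2 was likewise the brightest tumor for 29 of 42 members, and for 12 of the 14 core members. The mean log2 signal of all genes tested was 9.25 in control 2 and 9.18 in tumor 2, the lowest of each group. The same counts were not made for all genes or for genes of like brightness. Whether the pattern is particular to the members was therefore not tested. Control 2 held the most muscle signal and tumor 2 did not: the mean log2 signal of the muscle genes was 14.27 in control 2 and 7.55 in tumor 2. The share of the muscle signal in the level of control 2 was not tested.

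**Figure D3:**
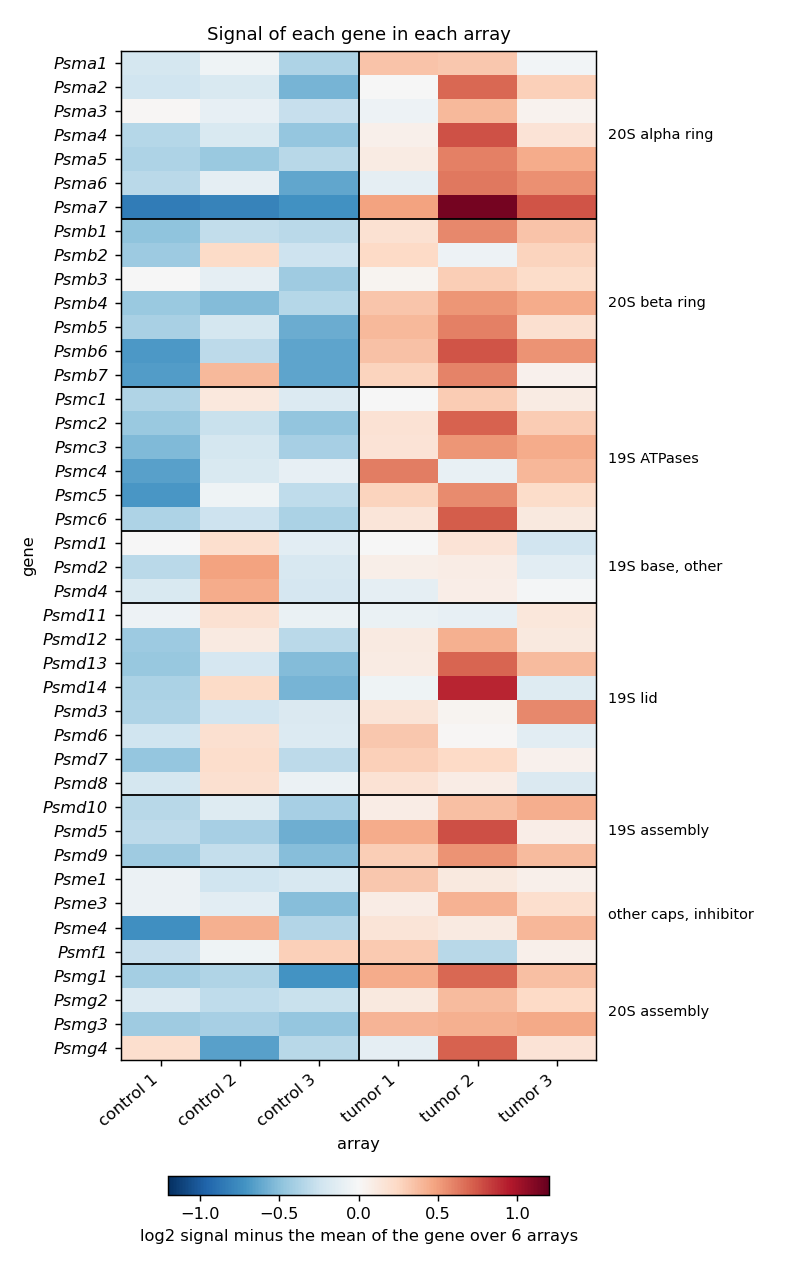
Signal of the 42 tested members on the 6 arrays, as log2 signal minus the mean of the gene over all arrays (red above, blue below), in the order of their roles. The 3 control columns are mostly blue and the 3 tumor columns mostly red in the core and chaperone rows, tumor 2 is mostly the deepest red, and the 3 rows of the 19S base scaffold and receptor are reddest in control 2.

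Promoter sequences were read from RefSeq (GRCm38.p6), where 36 of the 44 members were found. The ones shown were picked after values and matches had been seen: the member with the largest change, *Psma7*, the 3 called members with an antioxidant response element core, 1 called member with an ETS factor site, and 2 scaffold genes of the 19S base that did not pass. The stretches below are the 150 bases before the start of transcription listed with each promoter, 5′ to 3′ on the strand of the gene. For *Psmb6* and *Psmd2* the annotated gene begins earlier, at chr11:70525324 and chr16:20651122. The stretch of *Psmb6* thus lies partly, and that of *Psmd2* wholly, inside the annotated gene. They are chr2:180042465-180042614 for *Psma7* (minus strand), chr14:54617996-54618145 for *Psmb5* (minus strand), chr11:70525207-70525356 for *Psmb6* (plus strand), chr5:123228040-123228189 for *Psmd9* (plus strand), chr7:140882244-140882393 for *Psmd13* (plus strand), chr1:86064469-86064618 for *Psmd1* (plus strand) and chr16:20651502-20651651 for *Psmd2* (plus strand). The first 5 genes were called higher in tumors and the last 2 were not. Capitals mark letters of 4 patterns, searched on both strands. They are the core of an antioxidant response element (TGACNNNGC, the kind of element that Nrf1 binds), a site of the ETS family of factors (CGGAAGT), the box known as CCAAT by its letters, and the binding site of the factor Sp1, called a GC box (GGGCGG).
Psma7: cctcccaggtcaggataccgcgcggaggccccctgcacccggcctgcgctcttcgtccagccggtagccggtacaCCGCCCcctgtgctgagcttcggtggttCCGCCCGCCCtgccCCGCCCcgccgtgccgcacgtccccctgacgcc
Psmb5: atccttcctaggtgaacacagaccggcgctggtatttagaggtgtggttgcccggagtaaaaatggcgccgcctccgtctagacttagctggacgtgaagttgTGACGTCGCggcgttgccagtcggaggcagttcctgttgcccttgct
Psmb6: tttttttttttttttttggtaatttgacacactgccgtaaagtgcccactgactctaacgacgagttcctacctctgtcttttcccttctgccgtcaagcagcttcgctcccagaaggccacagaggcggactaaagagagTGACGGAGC
Psmd9: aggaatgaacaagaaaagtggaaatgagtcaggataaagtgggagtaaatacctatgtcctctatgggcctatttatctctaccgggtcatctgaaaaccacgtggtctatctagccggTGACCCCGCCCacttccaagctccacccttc
Psmd13: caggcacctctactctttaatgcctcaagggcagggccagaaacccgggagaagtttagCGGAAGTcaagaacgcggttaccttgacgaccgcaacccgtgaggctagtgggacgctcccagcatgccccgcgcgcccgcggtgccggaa
Psmd1: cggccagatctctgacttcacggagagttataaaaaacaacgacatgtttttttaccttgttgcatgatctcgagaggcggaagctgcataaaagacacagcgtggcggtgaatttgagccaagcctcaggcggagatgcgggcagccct
Psmd2: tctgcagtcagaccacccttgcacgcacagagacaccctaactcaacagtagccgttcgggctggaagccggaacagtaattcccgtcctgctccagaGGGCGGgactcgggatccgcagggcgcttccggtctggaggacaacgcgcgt
*Psmb5*, *Psmb6* and *Psmd9* each hold the antioxidant response element core on the strand of the gene, beginning 47, 9 and 31 bases before the listed start. In *Psmb6* the core lies past the beginning of the annotated gene. In *Psmd9* it overlaps a GC box on the opposite strand. *Psma7*, the member with the largest change, has 4 GC boxes in the stretch, of which 2 overlap each other. *Psmd13* has an ETS factor site, *Psmd2* has a GC box and *Psmd1* has none of the 4 letter patterns before its start. Past the end of the stretch, GC boxes begin at bases 2 and 6 of *Psmd1* and base 17 of *Psmd2*. Further ETS factor sites of *Psmd13* begin 5 bases before the start, running across it, and at base 11.

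Over the full promoters of 300 bases (250 before and 50 after the start), the antioxidant response element core was found in 6 of 36 members, or 16.7%, against 14.0% of all genes, and in 3 of the 11 called members that have a promoter in the table. The ETS factor site CGGAAGT was found in 14 of 36 members, or 38.9%, against 7.20% of all genes, and in 4 of the 11 called. CCAAT was found in 13 of 36 members (41.1% of all genes) and GGGCGG in 21 of 36 (38.2% of all genes). Other patterns searched on both strands were 2 further forms of the ETS factor site, CCGGAAG in 14 members (9.93% of all genes) and GGAAGTG in 8 (12.5% of all genes), both of which overlap the first form, the AP-1 site TGACTCA in 1 member (5.95% of all genes) and the E-box CACGTG in 3 (8.09% of all genes). Longer patterns for the Nrf and Maf consensus and for YY1 were found in 0 to 3 members, and a palindromic element of housekeeping promoters in 1 member, *Psmd5*. These patterns were chosen after the expression values had been seen, and a match of letters is a description, not a site.

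In the alpha ring, which forms the gate of the core, 2 of 7 tested members were called and all tumors lay above all control glands for 5. *Psma7* had signals of 3401, 3483 and 3666 in control glands against 8489, 13448 and 10234 in tumors. The lowest tumor was thus more than double the highest control gland. The difference was 1.58 ± 0.23 on the log2 scale (SE, 3 arrays against 3, limma adjusted p = 0.0027), and a second probe set of *Psma7* gave 1.86. *Psma5* had signals of 4407, 4171 and 4523 in control glands against 6069, 8618 and 7742 in tumors, with no overlap. Its log2 fold change was 0.76 ± 0.22 (SE, limma adjusted p = 0.032). *Psma3* had signals of 9780, 9035 and 8018 in control glands against 9289, 12710 and 9955 in tumors, so that tumor 1 lay within the control glands, and of the alpha ring it was furthest from passing (log2 fold change 0.24, limma adjusted p = 0.42). The values of *Psma1*, *Psma2*, *Psma4* and *Psma6* were 0.42, 0.65, 0.66 and 0.71 on the log2 scale, with limma adjusted p of 0.17, 0.084, 0.081 and 0.085. A second probe set of *Psma6* gave 1.05 and passed among the probe sets (limma adjusted p = 0.022).

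The beta ring had 4 of 7 tested members called, and of the 3 catalytic subunits 2 passed. *Psmb6*, the caspase-like site, had signals of 1815, 2354 and 1880.3 in control glands against 3720.1, 4927 and 4255 in tumors, for a log2 fold change of 1.09 ± 0.22 (SE, limma adjusted p = 0.0091). *Psmb5*, the chymotrypsin-like site, had signals of 1737, 1966 and 1504 in control glands against 2974, 3451 and 2589 in tumors, for a log2 fold change of 0.79 ± 0.22 (SE, limma adjusted p = 0.030). In both genes every tumor was above every control gland. *Psmb7*, the trypsin-like site, had signals of 3375, 7075 and 3473 in control glands against 6484, 8127 and 5599.8 in tumors, where control 2 lay above both tumor 1 and tumor 3. Its log2 fold change was 0.61 ± 0.34 (SE, limma adjusted p = 0.20), and without control 2 it was 0.96 (limma adjusted p = 0.036). Whether the 3 catalytic genes differ from each other in their change was not tested.

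Among the structural beta subunits, *Psmb4* had signals of 5033, 4794 and 5399 in control glands against 8620.2, 9931 and 9335 in tumors. The 3 values in each group lay close together and far from the other group, at a log2 fold change of 0.87 ± 0.19 (SE, limma adjusted p = 0.013). *Psmb1* was also called, with a log2 fold change of 0.73 (limma adjusted p = 0.031). *Psmb2* was furthest from passing in the ring: its signals were 1011, 1604 and 1151 in control glands against 1618, 1314 and 1648 in tumors, with tumor 2 within the range of the control glands (log2 fold change 0.30, limma adjusted p = 0.38). *Psmb3* had a log2 fold change of 0.36 (limma adjusted p = 0.23).

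**Figure D4:**
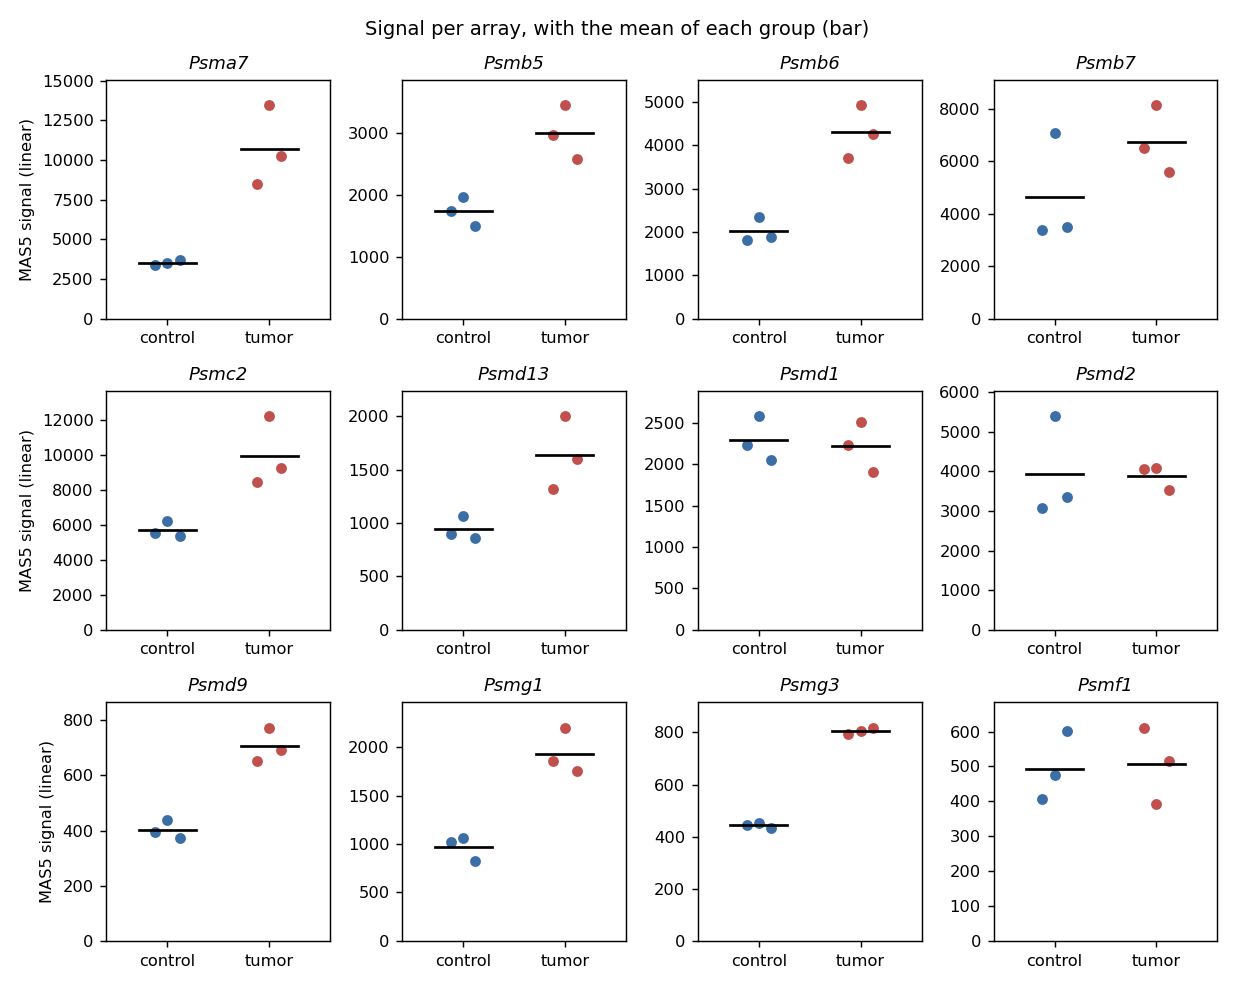
Signal of 12 members on each array (linear scale from 0, in units of the MAS 5.0 algorithm), with the arithmetic mean of the 3 control glands and of the 3 tumors as bars. Groups are apart for *Psma7*, *Psmb5*, *Psmb6*, *Psmc2*, *Psmd13*, *Psmd9*, *Psmg1* and *Psmg3*, and overlap for *Psmb7*, *Psmd1*, *Psmd2* and *Psmf1*.

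The ATPases of the 19S base form the ring that unfolds substrates, and 2 of these 6 were called, with all tumors above all control glands for 5. *Psmc2* had signals of 5497, 6198 and 5375 in control glands against 8442, 12177 and 9224 in tumors (log2 fold change 0.79 ± 0.22, SE, limma adjusted p = 0.031). Its probe set is of a kind that may bind related transcripts, and a probe set without that mark gave 0.56 (limma adjusted p = 0.15 among the probe sets). *Psmc3* had signals of 2905, 3628 and 3185 in control glands against 4698, 6079.8 and 5726 in tumors (log2 fold change 0.76 ± 0.21, SE, limma adjusted p = 0.030). In both genes the tumors were apart from the control glands. *Psmc1*, furthest from passing, had signals of 1681, 2354 and 1918 in control glands against 2148, 2654 and 2313 in tumors, where control 2 reached above 2 of the tumors (log2 fold change 0.27, limma adjusted p = 0.39). *Psmc4*, *Psmc5* and *Psmc6* had log2 fold changes of 0.62, 0.70 and 0.66, with limma adjusted p of 0.12, 0.061 and 0.066.

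The 3 other members of the 19S base did not pass, with log2 fold changes near 0. They are the scaffolds *Psmd1* and *Psmd2*, on which the base is built, and the ubiquitin receptor *Psmd4*. *Psmd1* had signals of 2230.1, 2579.8 and 2058 in control glands against 2231, 2516 and 1908 in tumors, for a log2 fold change of -0.05 with a 95% interval from -0.55 to 0.45 (limma adjusted p = 0.88). *Psmd2* had signals of 3078, 5387 and 3359 in control glands against 4048, 4085 and 3525 in tumors, for a log2 fold change of 0.02 with a 95% interval from -0.60 to 0.64 (limma adjusted p = 0.96). *Psmd4* had signals of 2611, 4039 and 2584 in control glands against 2749.7, 3135 and 2925 in tumors, for a log2 fold change of -0.04 with a 95% interval from -0.61 to 0.53 (limma adjusted p = 0.92). Control 2 was the brightest of all 6 arrays for each of the 3 genes, and without it their log2 fold changes were 0.041, 0.27 and 0.17. The 3 intervals include the log2 fold change of *Psmc1*.

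The lid, which holds the deubiquitinase Psmd14, had 1 of 8 tested members called. *Psmd13* had signals of 897, 1069.7 and 859 in control glands against 1320.0, 1999 and 1602 in tumors, with no overlap (log2 fold change 0.79 ± 0.23, SE, limma adjusted p = 0.038). Of 3 other probe sets of this gene, the brightest gave 0.70 and the next 0.17. *Psmd11* was furthest from passing, with signals of 8938, 10577 and 8800.1 in control glands against 8807.5, 8729 and 10234 in tumors, which overlap throughout (log2 fold change -0.03, limma adjusted p = 0.93). *Psmd14* had a log2 fold change of 0.47 (limma adjusted p = 0.34) and the widest error of the members, an SE of 0.36. Tumor 2 read 9478 against 4845 and 4511 in the other tumors. Control 2 read 5907 against 3849 and 3412 in the other control glands, and lay above tumor 1 and tumor 3. The other lid members *Psmd3*, *Psmd6*, *Psmd7*, *Psmd8* and *Psmd12* ranged from 0.06 to 0.51 on the log2 scale, and none passed.

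Of the 7 assembly chaperones tested, 4 were called. *Psmg1*, which with Psmg2 starts the alpha ring, had signals of 1024, 1057 and 826 in control glands against 1852, 2201 and 1749 in tumors, for a log2 fold change of 1.00 ± 0.21 (SE, limma adjusted p = 0.012). *Psmg3* had signals of 446, 454 and 434 in control glands against 793, 806 and 818 in tumors, for a log2 fold change of 0.86 ± 0.18 (SE, limma adjusted p = 0.012). No member had less spread than *Psmg3*, whose 3 tumors lay within a few percent of each other. *Psmg2* had signals of 1110.0, 1005 and 1032 in control glands against 1352, 1623 and 1466 in tumors, also apart (log2 fold change 0.49, limma adjusted p = 0.088). *Psmg4* had signals of 589, 326 and 407 in control glands against 476, 836 and 574 in tumors, where control 1 lay above 2 tumors (log2 fold change 0.52, limma adjusted p = 0.24).

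All 3 chaperones of the 19S base had every tumor above every control gland, and 2 of these were called. *Psmd5* had signals of 963, 909.9 and 795 in control glands against 1632, 2052 and 1264 in tumors (log2 fold change 0.87 ± 0.24, SE, limma adjusted p = 0.031). *Psmd9* had signals of 394.5, 437 and 373.5 in control glands against 653, 773 and 694 in tumors (log2 fold change 0.81 ± 0.20, SE, limma adjusted p = 0.018). *Psmd10*, also known as gankyrin, had signals of 682, 769.8 and 652 in control glands against 917, 1106 and 1162 in tumors (log2 fold change 0.59 ± 0.21, SE, limma adjusted p = 0.061). Tumor 2 was the brightest array for *Psmd5* and *Psmd9*, and tumor 3 for *Psmd10*.

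Of the alternative caps and the inhibitor, 0 of 4 were called by limma, and none had an unadjusted p under 0.05. *Psme1*, a subunit of the cap PA28 alpha beta, had signals of 3038, 2698 and 2782 in control glands against 3988, 3442 and 3321 in tumors (log2 fold change 0.33, limma adjusted p = 0.23). *Psme3*, the nuclear cap PA28 gamma, had signals of 438, 421 and 322 in control glands against 490.3, 614 and 528 in tumors (log2 fold change 0.47, limma adjusted p = 0.14). Both had all tumors above all control glands without passing the test. *Psme4*, the cap PA200, had signals of 2534, 5676 and 3307 in control glands against 4712, 4560.2 and 5548 in tumors, where control 2 was the brightest of all arrays (log2 fold change 0.44, limma adjusted p = 0.32). *Psmf1*, the inhibitor PI31, had signals of 405.5, 474 and 601 in control glands against 611, 391 and 515 in tumors, with the lowest array a tumor (log2 fold change 0.03, limma adjusted p = 0.94). *Psme2*, the partner of *Psme1*, shares its probe set with another symbol and was not analysed here.

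Of the 42 tested members, 21 had more than 1 probe set bright enough to use, which gave 39 further probe sets. Of these, 29 had the sign of the probe set that stood for the gene, 5 were higher at an adjusted p under 0.05 in a limma fit of all probe sets and 0 were lower. The 5 belonged to *Psma6*, *Psma7*, *Psmb4*, *Psmc4* and *Psmd13*. No member had probe sets called in opposite directions. The same counts were not made for the probe sets of all genes.

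Where interferon acts, the catalytic subunits are exchanged for *Psmb8*, *Psmb9* and *Psmb10*, which form the immunoproteasome and replace *Psmb5*, *Psmb6* and *Psmb7* in that order. None of the 3 passed in limma, all 3 had log2 fold changes below 0, and *Psmb10* alone had an unadjusted p under 0.05. *Psmb8* had signals of 2032, 1014 and 1582 in control glands against 904, 2020.2 and 1079 in tumors (log2 fold change -0.24, limma adjusted p = 0.66). *Psmb9* had signals of 1042, 727 and 1175 in control glands against 583, 795 and 715 in tumors (log2 fold change -0.48, limma adjusted p = 0.19). *Psmb10* had signals of 1272, 1149.7 and 926 in control glands against 617, 804 and 732 in tumors, each tumor below each control gland (log2 fold change -0.63, limma adjusted p = 0.065).

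Within an array, the log2 difference of *Psmb5* over *Psmb8* was 1.03 larger in tumors than in control glands, that of *Psmb6* over *Psmb9* was 1.57 larger and that of *Psmb7* over *Psmb10* was 1.24 larger. Over these 3 pairs, exact 2-sided permutation tests of 3 arrays against 3 gave p = 0.2, 0.1 and 0.1, and 0.2, 0.15 and 0.15 after Benjamini-Hochberg adjustment over the pairs. The smallest p that this design allows is 0.1, so that none could pass. For *Psmb6* over *Psmb9* and for *Psmb7* over *Psmb10* the tumors and control glands did not overlap. The lymphocyte markers tested were lower in tumors (2 of 2, limma), and 2 of 5 myeloid markers were lower, against 16.8% of all genes. Whether this has a part in the signal of the immunoproteasome genes was not tested.

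**Figure D5:**
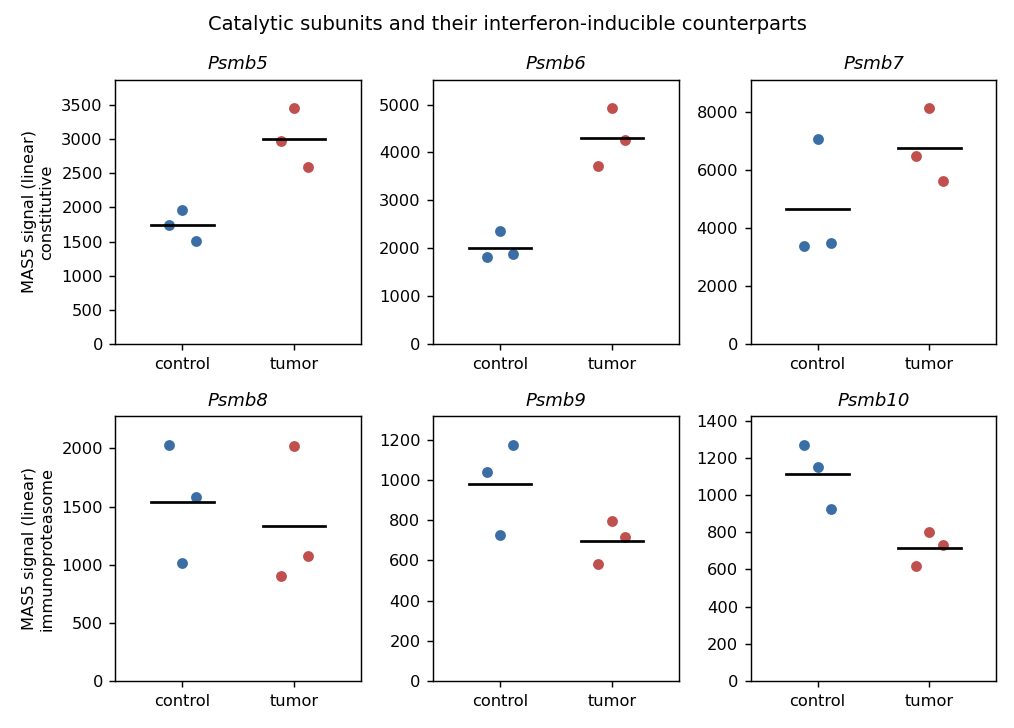
Signal per array of the 3 constitutive catalytic subunits (top) and, below each, of the interferon-inducible subunit that replaces it (linear scale from 0), with arithmetic means of the 3 control glands and 3 tumors as bars. *Psmb5* and *Psmb6* are higher in every tumor, *Psmb10* is lower in every tumor, and *Psmb7*, *Psmb8* and *Psmb9* overlap.

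Proteins that act with the proteasome but carry other symbols were taken from lists. Of 6 further components tested, 2 were higher (33.3%, against 16.3% of all genes) and 0 lower, at a median log2 fold change of 0.55. The higher ones were *Uchl5*, a deubiquitinase of the 19S particle, with signals of 1239, 1704 and 1355 in control glands against 2851, 3597 and 2917 in tumors (limma adjusted p = 0.0086), and *Txnl1*, a thioredoxin bound to the 19S particle, with signals of 4289, 5362 and 4314 in control glands against 7791.5, 12288 and 10000.2 in tumors (limma adjusted p = 0.014). Both were at least 2-fold higher. *Ecpas*, an adaptor that binds the assembled proteasome, was furthest from passing (log2 fold change -0.13, limma adjusted p = 0.68).

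Upstream of the proteasome, 10 genes that deliver ubiquitinated substrates were tested, at a median log2 fold change of 0.42. Of these, 0 were lower and 2 were higher, a share close to the 16.3% of all genes. They were *Ubxn1*, a cofactor of the unfoldase Vcp (log2 fold change 0.88, limma adjusted p = 0.023), and the shuttle receptor *Rad23b* (log2 fold change 0.72, limma adjusted p = 0.032). *Ufd1*, another cofactor of Vcp, was furthest from passing (limma adjusted p = 0.84). The ubiquitin activating enzyme *Uba6*, the only gene tested of its list, was higher (log2 fold change 0.85, limma adjusted p = 0.030).

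For the control of proteasome transcription, only a list of genes around Nrf1 was read. None of its tested genes passed on the higher side, with or without adjustment. Of 7 tested genes of the Nrf1 list, 0 were higher by limma (16.3% of all genes). On the lower side 2 were called, or 28.6% of this short list against 16.8% of all genes. The median log2 fold change was -0.62. The lower ones were the small Maf genes *Maff* (log2 fold change -0.69, limma adjusted p = 0.030) and *Mafk* (log2 fold change -0.79, limma adjusted p = 0.037), whose products pair with Nrf1 and Nrf2. *Nfe2l1*, chosen after its values were seen, had signals of 1267, 2552 and 1889 in control glands against 1133.5, 873 and 1177 in tumors. All tumors lay below all control glands, as for 23.1% of all genes (log2 fold change -0.80 ± 0.30, SE, limma adjusted p = 0.078). *Mafg* was furthest from passing (limma adjusted p = 0.81). The signal of *Nfe2l1* measures its RNA, and the Nrf1 protein is controlled largely after translation.

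Complexes of like build were read in the same way. The COP9 signalosome, whose subunits resemble those of the 19S lid, had 3 of 9 genes higher, or 33.3% against 16.3% of all genes. None was lower, and the median log2 fold change was 0.61. *Cops7a* (log2 fold change 0.87, limma adjusted p = 0.016), *Cops5* and *Cops2* were the 3, and *Cops8* was furthest from passing, with a log2 fold change of -0.29. The chaperonin CCT, a ring that folds actin and tubulin, had 5 of 8 genes higher, or 62.5% against 16.3% of all genes. None was lower, and the median was 0.75. All tumors lay above all control glands for all 8 (27.1% of all genes). *Cct5* had signals of 5331, 4420.4 and 5150.0 in control glands against 9874.5, 13976 and 12159.9 in tumors (log2 fold change 1.26, limma adjusted p = 0.0054). The counts of these complexes are set beside those of the proteasome as descriptions, and no difference between the complexes was tested.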

How the data were processed

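RNA of 3 acinar mammary tumors and 3 control glands was read on 6 Affymetrix mouse arrays. The deposited values are intensities on a linear scale, which the authors computed with the MAS 5.0 algorithm at a target of 500 per array. The detection calls stay unused. The arrays hold 45101 probe sets, of which 64 controls were dropped, and in the platform annotation 34945 of the others had 1 gene symbol, 932 several and 9160 none listed. Intensities below 50 were set to 50 and log2 values taken. Probe sets at 100 or more on at least 3 of 6 arrays were kept, and the one of highest mean log2 signal stands for its gene. The scale within an array sets the level, so that a change is relative to the other transcripts, and the number of arrays limits the precision.

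The groups were fitted with limma 3.58.1 (lmFit, eBayes) under R 4.3.3, with 2-sided tests and Benjamini-Hochberg adjustment over all genes tested, and a call was made at an adjusted p under 0.05 whatever the fold. Errors are moderated standard errors and intervals are at 95%. Steps were tested on simulated data. For each role the genes named are the 3 called with the largest change and the one furthest from passing, roles of 4 genes or fewer in full, and the catalytic subunits, and for each further list up to 3 called and the one furthest from passing. *Psmb1*, *Nfe2l1* and the members given by log2 fold change alone lie outside this rule and were named after their values were seen. The members, roles and lists were chosen with earlier results of these data known. Promoter sequences came from RefSeq through pandas 2.3.3 in Python 3.11.15.

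Each of these choices was changed in turn. The floor was 16 or 100, or 50 was added to each signal. The scaling was by quantile normalization or to equal medians, and the filter was none or 200. The variance model took a trend, and the replicate number was fitted as a block. Probe sets whose names carry the mark a, s or x were left out, or the probe sets were averaged per gene. A 2-fold limit was set. The test was the methods' t-test on linear signals, which comes with a 2-fold limit. Each array was left out.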

Additional observations from a re-analysis of the deposited data

How the results depend on the processing

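No setting called a member lower, and with all 6 arrays the number called higher lay between 1 and 19. It was 10 with the replicate number as a block. The deviations of same-numbered arrays correlated at -0.22, 0.02 and 0.04, and those of differently numbered arrays at -0.16 to 0.13. With 3 arrays per group this cannot show whether same-numbered arrays are paired. The number called was 2 with a 2-fold limit (4.76% against 10.6% of all genes). By the methods' t-test with its 2-fold limit it was 2 (4.76% against 5.47%), and by its statistic alone 9 (9.65% of all genes). After Benjamini-Hochberg adjustment of that test it was 1, which is *Psmg3* (2.38% against 0.535%). With each array left out it ranged from 4 to 12, and without control 1, control 3 or tumor 2 the share of members called was close to that of all genes. The median log2 fold change then ranged from 0.52 to 0.80 in the core and from 0.32 to 0.58 in the 19S particle.

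With equal array medians the median of all genes moved from 0.07 to 0.31, that of the core to 0.92 and that of the 19S particle to 0.67, while the members stayed 0.48 above all genes. The calls over all genes were then 3003 higher and 1676 lower, and 19 members were called. Without filter all 44 members entered and 13 were called. Without probe sets whose names carry the mark a, s or x, 36 entered and 10 were called. Not all of these marks stand for possible cross-hybridization, so members that dropped out, such as *Psma5* and *Psmb5*, are not thereby in doubt.

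Members near 0 changed sign. *Psmd1* was 0.19 with equal medians and ranged from -0.14 to 0.056 with each array left out, above 0 without control 2 and without tumor 3. *Psmd2* was -0.027 after quantile normalization and -0.020 by the methods' t-test, with or without adjustment, and ranged from -0.13 to 0.27 with each array left out, below 0 except without control 2 and without tumor 3. *Psmd4* was 0.20 with equal medians and 0.088 when its probe sets were averaged, and ranged from -0.15 to 0.17, above 0 without control 2 and without tumor 1. *Psmd11* was 0.21 with equal medians and ranged from -0.10 to 0.058 with each array left out, above 0 without control 2, tumor 1 and tumor 2. *Psmf1* was -0.12 when its probe sets were averaged and ranged from -0.12 to 0.2, below 0 without control 1 and without tumor 1. The causes were not tested.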
